A study of Mus musculus with 6 samples.

Results

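The actin cytoskeleton machinery of the L-cell was examined without β-actin itself, as 39 listed genes that nucleate, sever, recycle, cap, decorate and crosslink actin filaments. Members, listed in capitals as for example TPM4, CFL1, PFN2 and ARPC5 and written here as mouse symbols, were found by their gene symbol in the array table, whatever its case. Of the 39 genes, 37 had a probe under that symbol, among 30854 symbols in all, and together they had 78 probes. Actg1 (γ-actin) and Diaph1 (a formin) had none under their present symbols.

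RNA came from mGLUTag cells, a model of the intestinal L-cell that grows as an immortalized mouse line and releases the incretin hormone glucagon-like peptide-1. All cells had been starved in low serum, exposed to forskolin, an activator of adenylyl cyclase used here to synchronize the circadian clock, and returned to growth medium. They were collected at 4 h (n = 3) or 16 h (n = 3), which the study took for the high and the low point of Arntl, the gene of the clock factor BMAL1, and there was no unsynchronized group. This is 1 cell line, followed at 2 times, and each of the 6 samples was read on 1 array of the mouse BeadChip, with 45281 probes.

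Actin filaments grow at one end and are taken apart at the other, and the proteins listed here set both rates. The ARP2/3 complex starts new branches on existing filaments, cofilin severs old filaments, profilin and thymosin handle the free monomers, capping protein stops growth, tropomyosin coats the filament, and non-muscle myosin II pulls on it. In endocrine cells, a web of filaments under the plasma membrane stands between stored granules and their sites of release, and its remodelling is part of stimulated secretion.

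Values are given on 2 scales. Deposited intensities are the brightness of a probe on a linear scale with background subtracted. Log2 levels are the same values after normexp background correction and quantile normalization, and each change is the mean log2 level at 4 h minus that at 16 h, relative to the other probes of the arrays. Brightness depends on the probe, so levels were not compared between genes. Arrays were compared by mean deposited intensity, which lay between 291 and 354 at 4 h and between 216 and 246 at 16 h, with no overlap. A noise limit for each array was derived from its values below 0 and lay at 9.2 to 14 intensity units. Between 16964 and 17847 probes per array lay above it, and the correlation of log2 levels between arrays lay between 0.989 and 0.994. Of 10 L-cell markers, 8 lay above the limit on at least 3 arrays, among them Gcg with a mean deposited intensity of 19565 at 4 h and 11924 at 16 h, but Pcsk1 did so on 1 array and Pyy on none. Among defining markers of other cell types, 1 of 8 fibroblast genes (Col1a1), 1 of 5 striated muscle genes (Acta1), 0 of 6 smooth muscle genes, 0 of 5 leukocyte genes and 0 of 4 endothelial genes reached it on 3 arrays. The summed deposited intensity of the smooth muscle list lay between 19.6 and 24.0 at 4 h and between 8.6 and 21.3 at 16 h, against 34984 to 40682 and 22605 to 27645 for the L-cell list. The 3 probes for 18S ribosomal RNA separated the arrays across the time points. They were brighter on 4 h replicates 1 and 3 and 16 h replicate 1, with a mean log2 level of 8.50 to 10.57, than on the other 3 arrays, where it was 6.91 to 7.71.

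Because the time points were chosen by a clock factor that binds the E-box CACGTG, and serum acts on actin genes through the CArG box, the start sites of the members were searched for both motifs. Windows of 300 bases, from 250 before to 50 after each RefSeq gene start (GRCm38.p6), were read on both strands, and 37 of the 39 members matched, with 43 windows. The palindrome CACGTG lay in 5 of the 43 windows, or 11.6%, and in 7.15% of the 32851 windows of all genes. The CArG box, which does not overlap the E-box letters, lay in 3 member windows, or 6.98%, and in 1.63% of all windows. The cAMP response element TGACGTCA, searched because forskolin raises cAMP, lay in 1 member window, or 2.33%, and in 1.79% of all windows. Pfn2, Arpc5, Cfl2 and Msn are shown for the E-box and Myl6 and Arpc4 for the CArG box, since their transcripts were measured here. Each stretch lies upstream of the gene start, is written in the direction of the gene, and has the motif in capitals. Pfn2 (chr3:57847867-57847932, minus strand), Arpc5 (chr1:152766328-152766393, plus strand), Cfl2 (chr12:54862896-54862961, minus strand) and Msn (chrX:96095876-96095941, plus strand) held the E-box 145, 184, 54 and 139 bases before the start. In Myl6 (chr10:128493020-128493089, minus strand) and Arpc4 (chr6:113377863-113377902, plus strand) the CArG box began 50 and 250 bases before a start.
Pfn2: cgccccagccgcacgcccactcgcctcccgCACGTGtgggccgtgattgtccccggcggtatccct
Arpc5: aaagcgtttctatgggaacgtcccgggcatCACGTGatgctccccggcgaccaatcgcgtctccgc
Cfl2: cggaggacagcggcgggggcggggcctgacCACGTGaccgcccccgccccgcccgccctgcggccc
Msn: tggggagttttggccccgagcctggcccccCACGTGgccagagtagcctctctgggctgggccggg
Myl6: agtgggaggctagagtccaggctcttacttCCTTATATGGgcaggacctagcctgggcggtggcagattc
Arpc4: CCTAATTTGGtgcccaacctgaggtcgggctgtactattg

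mGLUTag cells expressed most of this machinery at both times. Of the 37 genes, 31 exceeded the noise limit on all 6 arrays, and Vasp and Myh10 did so on 4 arrays each. Capza2, the α2 subunit of capping protein, reached it on 1 array. Actr2 (the ARP2 subunit), Tpm2 (β-tropomyosin) and Rdx (radixin) reached it on no array, and these 4 genes are given no change. Actr2 and Rdx each had 1 probe. Detected members also had probes that reached the limit on no array, such as ILMN_2748690 of Actr3. A missing signal is therefore not read as a missing transcript. By probe, 52 of the 78 exceeded the limit on all 6 arrays, 6 on some and 20 on none.

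No member passed the test between 4 h and 16 h. Of the 33 genes detected on at least 3 arrays, 0 were higher and 0 were lower at an adjusted p under 0.05 by limma over all 45281 probes, where 0.0162% of the 12342 genes detected in the same way, and 0.00442% of all probes, were called in each direction. Each gene was read at its brightest probe, where the smallest adjusted p was 0.410, and over all member probes it was 0.363 (Arpc1b, ILMN_1227836). At an unadjusted p under 0.05, 3 members were higher at 4 h (Tpm4, Cfl1 and Pfn2), beside 5.77% of the detected genes, and 0 were lower, beside 5.21%. The 3 arrays of 4 h lay above the 3 arrays of 16 h for 4 members, the same 3 and Arpc5, beside 6.48% of the detected genes, and below them for 0, beside 5.71%. Counted by probe, 56 member probes were above the noise limit on at least 3 arrays, of which 5 had an unadjusted p under 0.05, 3 of them higher at 4 h, beside 5.49% of all probes of that kind, and 2 lower, beside 4.83%. Both lower probes belonged to Arpc1b, and 1 of them did not overlap between the time points, beside 5.33% of such probes. For any single gene, the smallest two-sided p that exact permutation of 3 against 3 arrays allows is 0.1.

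At the brightest probe of each gene, the changes were small in either direction. They ran from -0.18 (Tmsb4x) to 0.34 (Tpm4) with a median of 0.02, against 0.00099 for all detected genes, and 20 of the 33 were positive, or 60.6%, against 50.2% of the detected genes. The median size of a change without its sign was 0.10 for the members and 0.09 for all detected genes, and the median standard error was 0.10. For all 33 members, the 95% interval of the change at that probe lay within 2-fold in both directions, between 0.654-fold and 1.62-fold at its widest. Dimmer probes of Arpc1b changed by more, at -0.41 (ILMN_2860480, lower 95% limit 0.600-fold) and -0.45 (ILMN_1227836). The dots in the plot of member changes show the spread of the 5 role groups around 0.

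**Figure D1:**
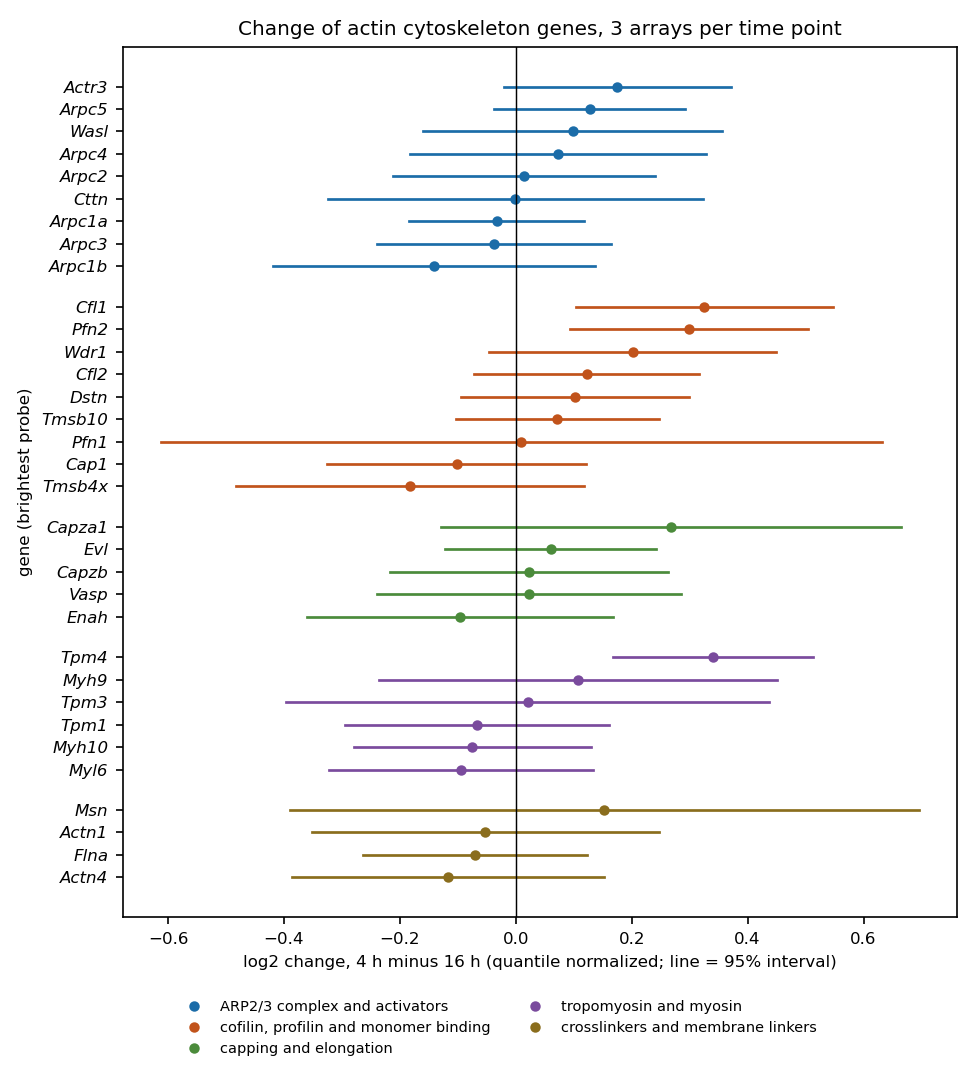
Log2 change (4 h minus 16 h, quantile normalized) of the 33 detected actin cytoskeleton genes at their brightest probe, with dots for the estimate, lines for the 95% interval and colours for the 5 role groups (n = 3 arrays per time point). Changes run from -0.18 for Tmsb4x to 0.34 for Tpm4, and the intervals of Tpm4, Cfl1 and Pfn2 alone lie wholly on one side of 0.

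On the deposited scale, before any normalization between arrays, the mean intensity of all 33 detected members was higher at 4 h. The share of all detected genes with a higher mean at 4 h was not taken. The log2 ratio of the deposited means had a median of 0.54 over the members detected on all 6 arrays and of 0.54 over all genes of that kind. It ran from 0.21 (Enah) to 1.03 (Cfl1). The members therefore shared the brightness of the 4 h arrays, and only their position relative to the other genes is described in the changes that follow.

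The ARP2/3 complex is a stable assembly of 2 actin-related proteins and 5 further subunits, switched on by factors such as N-WASP (Wasl) and held on branches by cortactin (Cttn). Of its 10 listed genes, 9 were detected, with 5 changes above and 4 below 0, a median of 0.01 and a range from -0.14 (Arpc1b) to 0.18 (Actr3). None passed the test, and the smallest adjusted p by limma was 0.920. The subunits did not share a direction, since Actr3, Arpc5, Arpc4 and Arpc2 lay above 0 and Arpc3, Arpc1a and Arpc1b below it.

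Arpc5, the smallest subunit, had deposited intensities of 13106, 10206 and 10149 at 4 h (replicates 1, 2 and 3) and of 8455, 7734 and 6617 at 16 h. After normalization its log2 levels were 13.32, 13.21 and 13.20 at 4 h against 13.19, 13.12 and 13.04 at 16 h. The time points did not overlap on either scale, but 4 h replicate 3 and 16 h replicate 1 lay next to each other. The change was 0.13 (SE 0.07; limma adjusted p = 0.928), and a second, dimmer probe for Arpc5 gave -0.04. With linear scaling of the arrays the change of Arpc5 was 0.015, and as a mean over its probes 0.055.

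Arpc3 had deposited intensities of 5099, 5128.5 and 5428 at 4 h and of 4437, 3783 and 3565 at 16 h. Its log2 levels overlapped, at 12.01, 12.25 and 12.22 against 12.30, 12.09 and 12.19, with both the lowest (4 h) and the highest (16 h) in replicate 1. The change was -0.04 (SE 0.09; limma adjusted p = 0.983).

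Arpc1b encodes one of a pair of alternative subunits, the other being Arpc1a, and it was chosen for description after its values were seen. Its brightest probe (ILMN_2860479) read 2418.5, 2341 and 2202 at 4 h and 1571, 2234 and 1703 at 16 h, and its log2 levels overlapped, with a change of -0.14 (SE 0.12; limma adjusted p = 0.959). Both remaining probes gave lower values at 4 h. ILMN_2860480 changed by -0.41 (SE 0.15; limma adjusted p = 0.813). ILMN_1227836 had log2 levels of 9.23, 9.31 and 9.52 at 4 h and of 9.69, 9.91 and 9.83 at 16 h, with no overlap and a change of -0.45 (SE 0.09; limma adjusted p = 0.363). Its deposited intensities did overlap, at 692, 585 and 842 against 653, 804 and 604, so this probe did not share the general brightness of the 4 h arrays. Without any normalization between arrays, its change was 0.04 and those of the other 2 probes were 0.34 and 0.08. All 3 probes were lower, by 0.21 to 0.48, on the 3 arrays with high 18S signal, and with the split as a block in the fit their changes were -0.04 (ILMN_2860479), -0.28 (ILMN_2860480) and -0.43 (ILMN_1227836). The 3 probes of Arpc1a detected on all arrays changed by -0.03, -0.11 and -0.23, and the last of them (ILMN_2699700) had an SE of 0.20. Its change was -0.42 with the 18S split as a block and 0.0085 without 16 h replicate 1, where the other 2 probes gave -0.04 and -0.0061.

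Cofilin, profilin and the monomer-binding proteins sever filaments and turn over their monomers. All 9 listed genes were detected, with 7 changes above and 2 below 0, a median of 0.10 and a range from -0.18 (Tmsb4x) to 0.33 (Cfl1). No gene of the group passed the test. The replicate SD of the group's median log2 level was 0.12, which is a spread of levels and does not measure that of the median change. The median change was 0.02 with the mean of each gene's probes, 0.0022 with linear scaling of the arrays and 0.04 to 0.16 with 1 array left out. The severing factors Cfl1, Cfl2 and Dstn and their cofactor Wdr1, which speeds disassembly of filaments bound by cofilin, had changes of 0.33, 0.12, 0.10 and 0.20 at their brightest probes. Second probes detected on all arrays gave -0.08 for Cfl2 (ILMN_1249976) and 0.06 for Wdr1 (ILMN_2460168). Cap1, which recycles monomers released by cofilin, had -0.10 (SE 0.10).

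Cfl1, the main non-muscle cofilin, had deposited intensities of 310.5, 201 and 220.5 at 4 h and of 133, 115 and 110.4 at 16 h. Its log2 levels of 8.22, 8.06 and 7.88 at 4 h all lay above those of 7.77, 7.62 and 7.80 at 16 h, with 4 h replicate 3 close to 16 h replicate 3. The change was 0.33 (SE 0.10, 95% interval 0.10 to 0.55, 1.25-fold; limma adjusted p = 0.689). Cfl1 had a single probe.

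Dstn, which encodes destrin, had deposited intensities of 8801, 6889.6 and 8279 at 4 h and of 5392, 6197 and 4914 at 16 h. Its log2 levels overlapped, at 12.76, 12.70 and 12.91 against 12.58, 12.81 and 12.67, where 16 h replicate 2 lay above 4 h replicates 1 and 2. The change was 0.10 (SE 0.09; limma adjusted p = 0.959). With linear scaling of the arrays the change of Dstn was 0.0022, and as a mean over its probes 0.019.

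The profilins, which load ATP onto monomers and carry them to growing ends, differed in their spread. Pfn2, the profilin of neurons and endocrine cells, had deposited intensities of 1963, 1628 and 1630.1 at 4 h and of 969, 1017 and 964 at 16 h. Its log2 levels were 10.67, 10.66 and 10.45 at 4 h and 10.23, 10.23 and 10.43 at 16 h, so that the third replicates of the 2 times nearly met. The change was 0.30 (SE 0.09, 95% interval 0.09 to 0.50, 1.23-fold; limma adjusted p = 0.703). A second probe (ILMN_2929791) gave 0.17 (SE 0.10), and another (ILMN_1235670), near the noise limit and above it on 3 arrays, gave -0.14 (SE 0.09). As a mean over its probes, Pfn2 changed by 0.11. Pfn2 is a gene with CACGTG upstream of its start, as are Arpc5, Cfl2 and Msn. Cfl2 changed by 0.12 (SE 0.09) at its brightest probe and -0.08 at the other. Msn changed by 0.15 (SE 0.24) and 0.04 at its 2 detected probes. The motif was found upstream of neither Tpm4 nor Cfl1. Any link between motif and change was not tested.

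Pfn1, the widely expressed profilin, was described after its values were seen, because its brightest probe had the largest standard error of any detected member. Its deposited intensities were 2737, 1483 and 3661 at 4 h against 2569, 1639 and 1282 at 16 h. The 3 highest of these were the 3 arrays with high 18S signal, at both times, and the probe (ILMN_2673211) lay 0.69 higher on them. The change between times was 0.0099 (SE 0.27; limma adjusted p = 0.999), and 95% limits of -0.61 and 0.63 leave its direction unresolved. A second probe (ILMN_2863965) followed the split less, at 0.27, and changed by 0.10 (SE 0.11).

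Thymosins hold monomers in reserve. Tmsb10 had deposited intensities of 16944, 13183 and 15628 at 4 h and of 11841, 10693 and 10727 at 16 h. After normalization these overlapped, at 13.69, 13.61 and 13.84 against 13.67, 13.59 and 13.67, with a change of 0.07 (SE 0.08; limma adjusted p = 0.965). Its other probes, also detected on all arrays, gave 0.08 (ILMN_3145331, SE 0.09) and -0.16 (ILMN_1225332, SE 0.12). Tmsb4x had a change of -0.18 (SE 0.13, 95% interval -0.48 to 0.12), the lowest of any member at its brightest probe, whereas as a mean over probes Arpc1b lay lower, at -0.33.

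**Figure D2:**
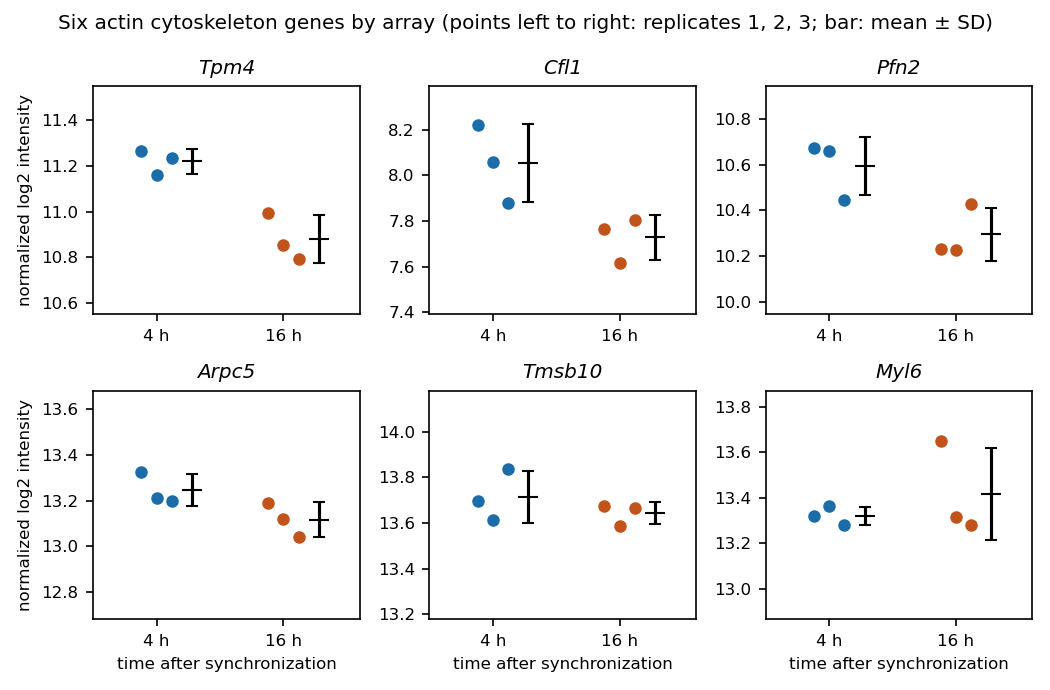
Normalized log2 intensity of Tpm4, Cfl1, Pfn2, Arpc5, Tmsb10 and Myl6 on each of the 6 arrays (blue points 4 h, orange points 16 h, replicates 1 to 3 from left to right; black bars are the mean ± SD, n = 3). The time points do not overlap for Tpm4, Cfl1, Pfn2 and Arpc5 and overlap for Tmsb10 and Myl6, where 16 h replicate 1 is the highest array at 13.65.

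The capping and elongation group has opposed roles, since capping protein (an α and a β subunit) blocks the growing end that VASP, Mena (Enah), EVL and formins extend. Of the 7 listed genes, 6 had a probe and 5 were detected, with 4 changes above and 1 below 0, a median of 0.02 and a range from -0.10 (Enah) to 0.27 (Capza1). None passed the test. Diaph1 had 3 probes under an older symbol, outside the search rule, of which 1 exceeded the noise limit on every array, and their changes were -0.0084, -0.0024 and -0.0063.

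Capzb, the β subunit, had deposited intensities of 1309.9, 993 and 1511 at 4 h and of 981, 943 and 678.5 at 16 h. Its log2 levels overlapped, at 10.11, 9.99 and 10.33 against 10.25, 10.14 and 9.97, and the change was 0.02 (SE 0.11; limma adjusted p = 0.994). Evl had deposited intensities of 851, 622 and 845 at 4 h and of 479.5, 591 and 449.8 at 16 h. Its log2 levels also overlapped, at 9.52, 9.38 and 9.52 against 9.29, 9.51 and 9.44, with a change of 0.06 (SE 0.08; limma adjusted p = 0.972). The highest change of the group, Capza1 at 0.27, had an SE of 0.18, and its probe lay 0.53 higher on the arrays with high 18S signal.

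Tropomyosins compete with cofilin for the filament and recruit myosin II, which Myh9 and Myh10 (heavy chains) and Myl6 (essential light chain) encode in non-muscle cells. Of the 7 listed genes, 6 were detected, with 3 changes above and 3 below 0, a median of -0.02 and a range from -0.10 (Myl6) to 0.34 (Tpm4). None passed the test. The tropomyosin genes did not share a direction, since Tpm4 and Tpm3 lay above 0 and Tpm1 below it at -0.07 (SE 0.10).

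At the brightest probe of each gene, Tpm4 had the highest change and the smallest adjusted p of the detected members. Its deposited intensities were 3005, 2334 and 2808 at 4 h and 1692, 1589.6 and 1260.5 at 16 h, and its log2 levels were 11.27, 11.16 and 11.24 at 4 h and 11.00, 10.85 and 10.79 at 16 h. All 4 h arrays lay above all 16 h arrays on both scales. The change was 0.34 (SE 0.08, 95% interval 0.17 to 0.51, 1.27-fold; limma adjusted p = 0.410). A second, dimmer probe (ILMN_1223539) gave 0.18 (SE 0.09). Both probes of Tpm4 lay 0.23 higher on the arrays with high 18S signal.

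Myl6 had deposited intensities of 13076, 11016 and 10699 at 4 h and of 11689, 8843.5 and 7838 at 16 h. Its log2 levels were 13.32, 13.36 and 13.28 at 4 h and 13.65, 13.32 and 13.28 at 16 h, so that a single array, 16 h replicate 1, stood above the rest. The change was -0.10 (SE 0.10; limma adjusted p = 0.962), and a second probe gave -0.02 (SE 0.07). Without 16 h replicate 1 the change of Myl6 was 0.02. Tpm3 had deposited intensities of 4293, 2305 and 4275 at 4 h and of 3074, 2467 and 2062 at 16 h, again highest on the 3 arrays with high 18S signal. Its change was 0.02 (SE 0.18; limma adjusted p = 0.997). Myh9 changed by 0.11 (SE 0.15) and Myh10 by -0.07 (SE 0.09).

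Among crosslinkers and membrane linkers, α-actinins (Actn1, Actn4) bundle filaments, filamin (Flna) joins them into networks, and moesin and radixin tie them to the membrane. Of the 5 listed genes, 4 were detected, with 1 change above and 3 below 0, a median of -0.06 and a range from -0.12 (Actn4) to 0.15 (Msn). None passed the test. Flna changed by -0.07 (SE 0.09).

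Actn1 had deposited intensities of 1015, 859 and 1287 at 4 h and of 708, 1008 and 589 at 16 h. Its log2 levels were 9.76, 9.80 and 10.11 against 9.81, 10.22 and 9.80, with the highest array at 16 h and the lowest at 4 h, and the change was -0.05 (SE 0.13; limma adjusted p = 0.984). Actn4 had deposited intensities of 707, 485 and 846 at 4 h and of 578, 542 and 399 at 16 h. Its log2 levels also overlapped, at 9.27, 9.07 and 9.52 against 9.54, 9.38 and 9.28, with a change of -0.12 (SE 0.12; limma adjusted p = 0.962). Its probe ILMN_1242390, with a change of 0.07 (SE 0.28), lay 0.74 higher on the arrays with high 18S signal, against 0.20 for the brightest probe of the gene.

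The 18S signal moved with part of the member probes. Of the 52 that exceeded the noise limit on every array, 13, or 25.0%, were higher on each of the 3 arrays with high 18S signal than on each of the other 3, beside 10.2% of all probes of that kind. They were both probes of Pfn1, the second probe of Tpm4, the brightest probes of Msn, Capza1, Tpm3, Actr3, Wasl, Cfl2 and Tmsb10, and another probe each of Actn4, Arpc1a and Wdr1. The arrays were set apart by these data and not by the labels, so the count is a description without a test. As the plot of probes ordered by 18S signal shows, probes of the same gene could differ in this respect, by up to 0.54 (Actn4). In their change between times, probes of a gene detected on all arrays differed by at most 0.31 (Arpc1b).

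**Figure D3:**
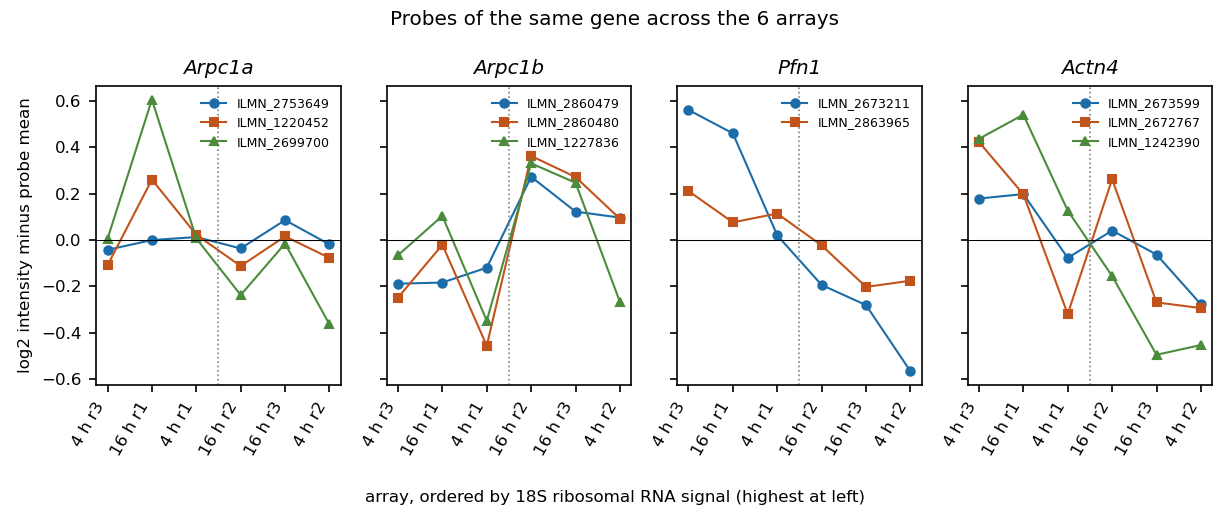
Deviation of each probe of Arpc1a, Arpc1b, Pfn1 and Actn4 from its own mean log2 intensity on each array, with arrays ordered by 18S ribosomal RNA signal from highest at left and a dotted line between the 3 arrays with high and the 3 with low signal. ILMN_2673211 of Pfn1 and ILMN_1242390 of Actn4 lie 0.69 and 0.74 higher at left, whereas the 3 probes of Arpc1b lie 0.21 to 0.48 lower there.

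The time comparison was also read within each side of the 18S split, where there were 2 arrays of 4 h and 1 of 16 h on the high side and 1 and 2 on the low side, so that neither side allows a test of its own. The median change of the 33 members was 0.05 among the arrays with high signal and -0.04 among the others. A total of 8 members were higher at 4 h on both sides, 8 were lower on both sides and 17 had opposite signs. The shares of all detected genes were not taken here, so these counts are not read as a result about the members. Tpm4 (0.26 and 0.34), Cfl1 (0.28 and 0.35) and Pfn2 (0.33 and 0.33) were higher at 4 h on both sides, which the lack of overlap between their time points fixes beforehand, and Tmsb4x was lower on both (-0.26 and -0.20). With the split as a block in the limma fit over all arrays, 0 members passed the test, 3 had an unadjusted p under 0.05, beside 11.7% of the detected genes, and 16 of the 33 changes lay above 0 in place of 20. The member median was then -0.03 in place of 0.02, and the changes of Tpm4, Cfl1 and Pfn2 were 0.30, 0.32 and 0.33.

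Array by array, 4 h replicate 3 was highest for the machinery as a whole. This array also had the highest 18S signal, at a mean log2 level of 10.57. The members' median deviation from their own mean was 0.02, -0.04 and 0.14 on the 4 h arrays and 0.04, -0.04 and -0.07 on the 16 h arrays. It was above 0 on each array with high 18S signal and below 0 on each of the others. Over all detected probes the median deviation lay between -0.0057 and 0.012. On 4 h replicate 3, 26 of 33 members lay above their own mean, against 18 and 12 on the other 4 h arrays and 21, 11 and 10 on those of 16 h. The share of all detected genes was not taken, and the cause was not tested. Without 4 h replicate 3 the median change of the members was -0.03, and without 4 h replicate 2 it was 0.11. The plot of group deviations shows that all 5 groups had a positive median on 4 h replicate 3.

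**Figure D4:**
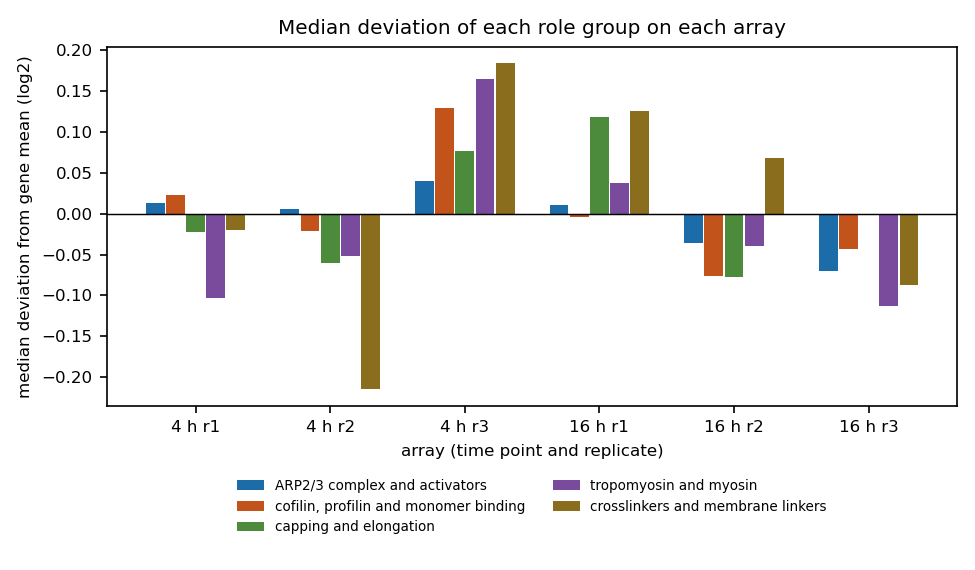
Median deviation (log2) of the detected members of each role group from their own mean over the 6 arrays, with a bar for each group (colours) on each array. All groups are above 0 on 4 h replicate 3, and the crosslinkers range most widely, from -0.22 on 4 h replicate 2 to 0.18 on 4 h replicate 3.

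Further genes of the actin pathway, 80 regulators, motors, linkers and transcription factors that are not members, were measured for context. A total of 78 matched a probe, 69 by symbol and 9 by a synonym, and 60 were detected on at least 3 arrays. Of these, 34 had a change above and 26 below 0, with a median of 0.01, and 0 passed the test by limma in either direction. At an unadjusted p under 0.05, 4 were higher at 4 h and 1 was lower, and 5 were higher on all arrays of 4 h than on any of 16 h, beside 5.77%, 5.21% and 6.48% of all detected genes. The smallest p-values among the higher genes belonged to Tmod3, which caps the slow-growing end of the filament, at 0.38 (SE 0.09; adjusted p = 0.496), Wipf1, which binds WASP proteins, at 0.34 (SE 0.10; adjusted p = 0.677) and the formin Daam1 at 0.27 (SE 0.09; adjusted p = 0.744). Among the lower genes they belonged to Scin, a calcium-dependent severing protein of secretory cells, at -0.34 (SE 0.15; adjusted p = 0.919), Eps8, a capping and bundling protein, at -0.37 (SE 0.17; adjusted p = 0.919) and Wipf2, a relative of Wipf1, at -0.33 (SE 0.15; adjusted p = 0.919).

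Actb, which is not a member, had 5 probes whose changes ran from -0.02 to 0.57, none of which passed the test. They differed in how far they followed the 18S split, from -0.05 (ILMN_2698799) to 2.56 (ILMN_1377923), a wider range than that of the member probes named above.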

How the data were processed

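Total RNA of mGLUTag cells was hybridized to the mouse WG-6 v2 BeadChip. The deposited table gives a linear intensity for each probe on each array, which the authors left non-normalized between arrays; the values carry a background subtraction (31.2% to 34.0% of an array lay below 0). Detection p-values, scanner settings and slides are not given in the sources used here. Samples were grouped by time in the labels. Whether replicates were separate cultures is not stated, so p-values measure the spread between these samples, and precision is limited by the number of arrays.

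Values were corrected with normexp (offset 50), quantile normalized and log2 transformed with limma 3.58.1 in R 4.3.3. Changes were fitted over all 45281 probes (lmFit, eBayes, time as the term), with Benjamini-Hochberg adjustment over all probes (threshold 0.05). The offset shrinks changes of dim probes, and quantile normalization removes a shift shared by all probes. The noise limit was the 99th percentile of the sign-turned values below 0, and a gene above it on 3 arrays was called detected. A gene was represented by its brightest probe. The replicate SD of a group's median log2 level was taken over the arrays of a time point. Gene starts came from RefSeq (GRCm38.p6). The procedure was also run on simulated data, with planted changes larger than any seen for a member. That run does not show how well changes of the size reported here are found.

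Members, gene lists and tests were chosen with earlier results of these data known. Values on every array are given for the 2 members of each group with the highest mean deposited intensity, for members with an unadjusted p under 0.05 and for genes with detected probes that differ by over 0.5 in change (there were none); Arpc1b and Pfn1 were added after their values were seen. Of the further genes, the 3 with the smallest p in each direction are named. Alternatives were no background correction (floor 1), an offset of 16, other scalings (none, median, cyclic loess, trimmed mean with 10% from each end), filters at the noise limit or the median probe, eBayes with trend and robust settings, weighted arrays, the replicate number or the 18S split as a block, each array left out, and the mean over the probes of a gene.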

Additional observations from a re-analysis of the deposited data

How the results depend on the processing

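Results depended most on the scaling between arrays. Without it, the detected genes as a whole shifted by 0.37 on the log2 scale and with median scaling by 0.28, and 2308 and 832 probes were called higher at 4 h, with 0 lower, where quantile normalization gave 2 in each direction. With these shifts included, the member median was 0.47 and 0.38, the ARP2/3 median 0.49 and 0.40, the cofilin and profilin median 0.48 and 0.39, the capping median 0.52 and 0.43, the tropomyosin and myosin median 0.45 and 0.36 and the crosslinker median 0.41 and 0.32. With no scaling 5 members were called higher (Arpc1a, Cfl1, Wdr1, Pfn2 and Tpm4), beside 2308 of all 45281 probes. With median scaling 3 were (Cfl1, Pfn2 and Tpm4), beside 832 of all 45281 probes. The share of the detected genes was not taken at these settings, so these counts are not read as a result about the members. At the brightest probe, the changes of all 33 detected members then lay above 0, and the share of the detected genes that did was not taken. The 13 negative changes thus turned positive, among them Arpc3 (0.41 and 0.32), Arpc1b (0.34 and 0.26), Myl6 (0.31 and 0.22), Actn1 (0.45 and 0.36) and Actn4 (0.37 and 0.29). The other probes of Arpc1b, ILMN_2860480 and ILMN_1227836, stayed below 0 with median scaling (-0.0039 and -0.051). In the other settings 0 members were called. Over all probes, no background correction gave 19 higher and 10 lower. An offset of 16, the filters at the noise limit and at the median probe, and the replicate block gave 0 and 0, cyclic loess gave 0 higher, and eBayes with trend and robust settings gave 1 higher and 0 lower.

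Small changes turned sign elsewhere. The member median was -0.017 with linear scaling and -0.028 with the 18S block, and the ARP2/3 median was -0.0074 with linear scaling. Tmsb10 was -0.081 with linear scaling and -0.0047 as a mean of probes. Pfn1 was -0.0057 with cyclic loess, -0.047 with linear scaling and -0.25 with the 18S block. Capzb was -0.048 with the 18S block and -0.013 as a mean of probes. Tpm3 was -0.055 with linear scaling, -0.15 with the 18S block and -0.015 as a mean of probes. The cause was not tested. Leaving out each array gave 0 calls over all probes, a member median of -0.03 to 0.11, an ARP2/3 median of -0.019 to 0.10, and medians of 0.045 to 0.16 for cofilin and profilin, 0.024 to 0.10 for capping, -0.10 to 0.079 for tropomyosin and myosin and -0.13 to 0.024 for crosslinkers. The change of Arpc3 then ran from -0.090 to 0.037, Pfn1 from -0.27 to 0.29, Capzb from -0.073 to 0.10, Evl from -0.0017 to 0.11, Tpm3 from -0.13 to 0.25, Myl6 from -0.16 to 0.022 and Actn1 from -0.16 to 0.087. It ran from -0.27 to -0.040 for Arpc1b, from -0.24 to -0.0073 for Actn4 and from 0.045 to 0.17 for Dstn. For Tpm4 (0.29 to 0.40), Cfl1 (0.24 to 0.40) and Pfn2 (0.26 to 0.37), whose time points do not overlap, the sign could hardly turn.

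The replicate numbers were not taken to pair the samples, since the deviations of same-numbered arrays correlated at 0.24, 0.17 and -0.47. With the replicate block, 0 probes passed the test. Of all 45281 probes, 2489 had an unadjusted p under 0.05, in place of 2456 in the main fit. Among the members 5 did, in place of 3. The share of the detected genes was not taken under this block, so the 5 are not read as a result about the members. Vasp and Myh10 lay near the noise limit, where the offset shrinks changes. Their SEs were 0.12 and 0.09, against a median of 0.10 over the detected members.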
